A study of Mus musculus with 6 samples.

Results

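The hedgehog signalling and gut mesenchyme gene set held 10 genes, Ihh, Ptch1, Hhip, Gli1, Gli2, Foxf1, Foxf2, Foxl1, Irx3 and Irx5, out of 46078 genes in the count tables. They were taken by gene symbol for their known roles, and all 10 symbols were found. The set was also selected on the fold changes between these same libraries, which were known when it was drawn up, so the genotype differences of the 10 genes are a description and not a test. Only Irx3 and Irx5 are homeobox genes, since the Fox genes are forkhead genes. The data are RNA sequencing counts from small intestinal adenomas of 6 mice of 18 weeks of age and mixed C57BL6/SV129 strain. Knockout (KO) mice were miR-34a/b/c-/-;ApcMin/+ and wild-type (WT) mice were miR-34a/b/c+/+;ApcMin/+, with 3 mice in each group. All 6 mice also carried ApcMin, a mutant allele of the tumor suppressor Apc under which intestinal adenomas form, so WT refers to the microRNA loci alone. Each library pooled 3 tumors of 1 mouse, which makes the mouse the replicate.

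Hedgehog ligands of the intestine are secreted by the epithelium and act mainly on the mesenchyme beneath it. In the receiving cell the ligand binds the receptor Ptch1, which releases the membrane protein Smo from inhibition, and Gli transcription factors then switch on target genes, Ptch1, Hhip and Gli1 among them. Foxf1, Foxf2 and Foxl1 are mesenchymal forkhead transcription factors that lie downstream of hedgehog signals in the developing mouse gut. Irx3 and Irx5 are Iroquois homeodomain transcription factors that sit in 1 gene cluster and are known mainly for patterning of the embryonic mouse limb and heart.

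The KO mice lack miR-34a, miR-34b and miR-34c, small RNAs of a family that shares a seed, the bases 2 to 8 that pair with target messages. The mature sequences of miR-34a-5p and miR-34b-5p (RefSeq, GRCm38.p6) show that shared seed in capitals.
mmu-miR-34a-5p: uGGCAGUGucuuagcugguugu
mmu-miR-34b-5p: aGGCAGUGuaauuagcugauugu
Matches to this seed were sought as CACTGCC, which pairs with bases 2 to 8, or as ACTGCCA, which pairs with bases 2 to 7 and ends in A. The search covered the sense strand of the longest 3′ UTR of each gene in GENCODE M21. Of the 10 genes, 2 held a match (20%), against 3653 of 14723 tested genes with an annotated 3′ UTR (24.8%). Ihh held 1 match, starting at base 13 of a UTR of 774 bases (chromosome 1), and Ptch1 held 2, starting at bases 554 and 5972 of 9012 (chromosome 13). The matches are shown in capitals with 10 bases on each side.
Ihh site: ggactctaacCACTGCCctcctggaac
Ptch1 site at base 554: ctccagcctcCACTGCCtcgagccccc
Ptch1 site at base 5972: gtgcccagctACTGCCAgcccatcacc
These letters were not present in the UTRs used for Irx5 (560 bases), Irx3 (397 bases), Foxf1 (1265 bases), Foxf2 (758 bases), Foxl1 (1672 bases), Gli1 (165 bases), Gli2 (1653 bases) or Hhip (6480 bases). Among tested genes with a UTR of like length, 14.3% held a match at the length of Ihh, 71.9% at that of Ptch1 and 10.8% at that of Irx5. A match is a run of letters and was not tested as a site.

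Libraries held 26375035 to 38354355 counts. Mir34a, Mir34b and Mir34c themselves had 0 counts in all 6 libraries, which leaves the genotype labels unchecked by these tables. At this depth a count of 0 allows up to 3 counts, between 0.0720 and 0.106 CPM. CPM, the read count on a mega-count basis, is the level used for single genes throughout. It is scaled to the TMM library size, which is the summed count of the tested genes times a factor of 0.914 to 1.09. Libraries stood apart along the first principal component (44.5% of the variance), where KO replicates 1 and 3 scored -42.7 and -41.7, KO replicate 2 scored 26.7 and the WT libraries lay between -1.69 and 44.9. Of 17254 genes tested with edgeR's quasi-likelihood test, 16 passed an adjusted p of 0.05, which is 0.0927%, and 7 of these were higher in KO (0.0406%).

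None of the 10 genes passed that test (0 of 10 beside 0.0927% of all genes in either direction and 0.0406% higher in KO, adjusted p from 0.581 for Irx5 to 0.989 for Gli1, edgeR). At an unadjusted p below 0.05 there were 3 of them, Irx5, Foxf1 and Irx3, where 5.85% of all tested genes were below that value. DESeq2 called 1 of the 10, Irx5 (adjusted p = 0.000959), and 0.638% of all genes, whereas limma-voom called 0 of the 10 and 0.122% of all genes. Irx5 and Foxf1 were the 2 members whose 3 KO libraries lay above the 3 WT libraries, as did 5.86% of all genes, and no member lay below, as did 5.34%. Since the genes were picked with this contrast in view, nothing is read from these counts. All 10 passed the count filter, which asks for 3 libraries over its minimum. Irx3 and Irx5 had all 3 KO libraries over it, but only 1 and 2 WT libraries. Neither gene could therefore enter the test through its WT libraries alone.

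**Figure D1:**
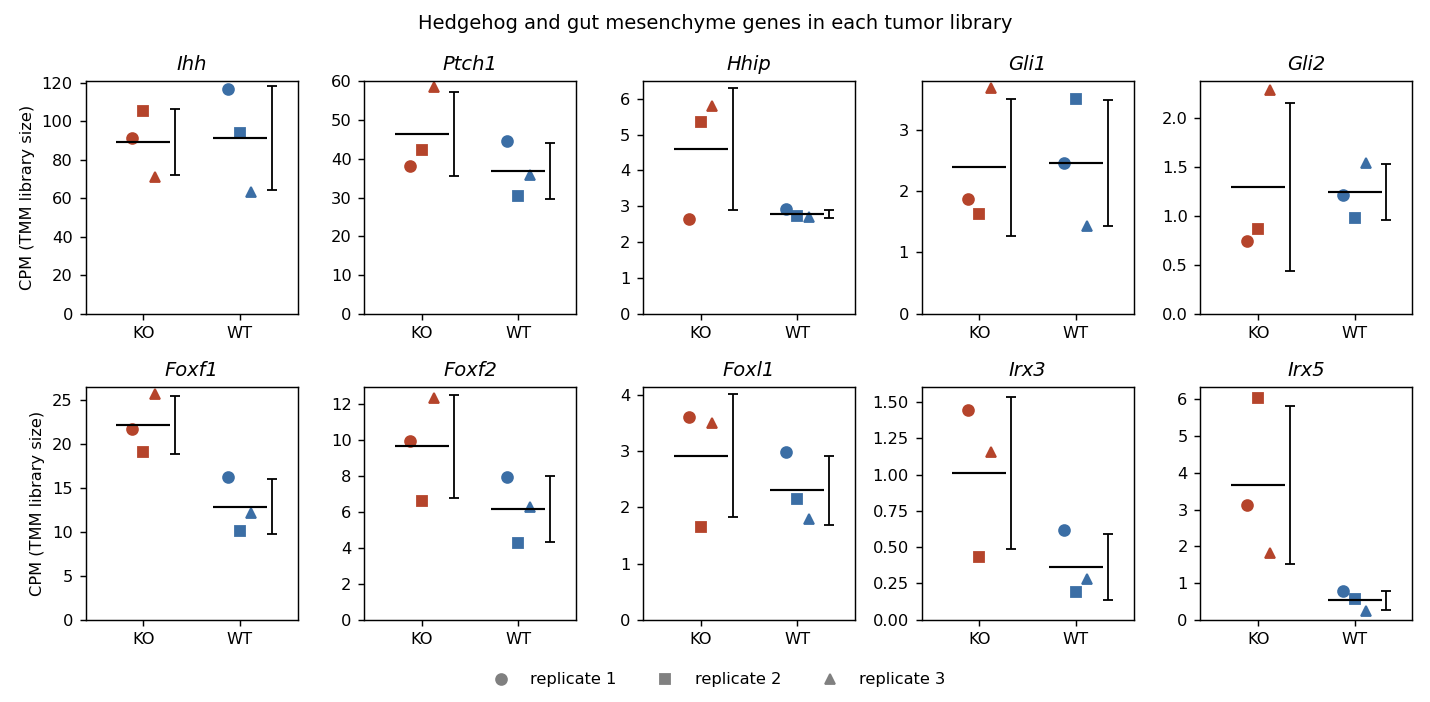
CPM of each gene in each library, with KO left of WT, replicate number by symbol shape, horizontal bars for group means and vertical bars for 1 SD (n = 3 mice each). The groups are separate for Irx5 and Foxf1 and overlap for the other 8 genes.

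Ihh, the ligand of the set (ENSMUSG00000006538, a protein-coding gene like the other 9, mm10 chromosome 1, 74945315 to 74951672, minus strand), is made by the epithelium and was its most abundant gene. Ihh had 91.1, 105 and 71.1 CPM in KO tumors and 117, 94.2 and 63.1 CPM in WT tumors. The ranges covered each other almost fully and the means were 89.2 ± 17.3 CPM in KO and 91.3 ± 26.9 CPM in WT (SD, n = 3 each). The fitted log2 fold change was -0.03 ± 0.25 (SE), and values after ± are SE for fold changes and SD for means. That small value changed sign with the scaling and with the mice used, from -0.24 without WT replicate 3 to 0.17 without WT replicate 1, so no direction is given for the ligand.

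The receptor and the ligand-binding inhibitor are both targets of the pathway. Ptch1 (ENSMUSG00000021466, chromosome 13, 63508328 to 63573598, minus strand) had 38.2, 42.3 and 58.7 CPM in KO and 44.7, 30.4 and 35.8 CPM in WT, a log2 fold change of 0.33 ± 0.21. Only KO replicate 3 was above the WT range. Without it the fold change was 0.11. Hhip, which binds hedgehog ligands at the cell surface (ENSMUSG00000064325, chromosome 8, 79966115 to 80058006, minus strand), had 2.64, 5.35 and 5.81 CPM in KO and 2.92, 2.74 and 2.69 CPM in WT. The WT libraries were nearly equal, whereas KO replicates 2 and 3 stood at about the same higher level and KO replicate 1 the lowest level of all 6 (log2 fold change 0.73 ± 0.34). Hhip and Ptch1 thus differed in which KO libraries were high.

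The Gli factors showed no steady difference. Gli1, both an activator and a target of the pathway (ENSMUSG00000025407, chromosome 10, 127329889 to 127341589, minus strand), had 1.87, 1.62 and 3.67 CPM in KO and 2.45, 3.49 and 1.43 CPM in WT. The highest KO library and the highest WT library were close to each other, and the log2 fold change was -0.04 ± 0.46. Gli1 overlaps Arhgap9 on the opposite strand, which held 1084 counts over the 6 libraries against 255 KO and 241 WT counts of Gli1, so its values are uncertain where the counting did not use strand. Gli2, the main activator of the pathway in the mouse (ENSMUSG00000048402, chromosome 1, 118834132 to 119053619, minus strand), had 0.740, 0.858 and 2.28 CPM in KO and 1.21, 0.975 and 1.54 CPM in WT. KO replicates 1 and 2 lay below all WT libraries and KO replicate 3 above them, for a log2 fold change of 0.07 ± 0.49. The fitted signs of Gli1 and Gli2 changed with single mice, from -0.50 without KO replicate 3 to 0.30 without WT replicate 2 for Gli1, and from -0.64 without KO replicate 3 to 0.33 without KO replicate 1 for Gli2.

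Target genes varied against the ligand from library to library. The ratio of Ptch1 to Ihh was 41.9%, 40.1% and 82.5% in KO tumors and 38.3%, 32.2% and 56.7% in WT tumors, on CPM. Gli1 was 2.05%, 1.53% and 5.17% of Ihh in KO and 2.103%, 3.71% and 2.26% in WT. KO replicate 3 had the highest ratio for both targets, and the groups overlapped. For Hhip the ratios to Ihh were 2.90%, 5.07% and 8.17% in KO and 2.50%, 2.91% and 4.26% in WT, again with overlap and with KO replicate 3 highest. In another pair, picked after its values were seen, Foxf1 was 56.7%, 44.9% and 43.7% of Ptch1 in KO and 36.3%, 33.2% and 34.0% in WT, without overlap.

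Per kb of exon Foxf1 and Foxf2 were the most abundant transcription factors of the set. Foxf1 (ENSMUSG00000042812, chromosome 8, 121084386 to 121088144, plus strand) had 21.6, 19.0 and 25.6 CPM in KO tumors and 16.2, 10.1 and 12.2 CPM in WT tumors. Every KO library lay above every WT library, with means of 22.1 ± 3.32 CPM in KO and 12.8 ± 3.12 CPM in WT, a log2 fold change of 0.79 ± 0.22. Foxf2 (ENSMUSG00000038402, chromosome 13, 31625816 to 31631403, plus strand) had 9.97, 6.64 and 12.4 CPM in KO and 7.92, 4.28 and 6.30 CPM in WT, a log2 fold change of 0.65 ± 0.32. For Foxf2 the lowest KO library, replicate 2, lay inside the WT range. The ratio of Foxf1 to Foxf2 CPM, picked after its values were seen, lay between 1.93 and 2.87 in the 6 libraries. Foxl1 (ENSMUSG00000097084, chromosome 8, 121127940 to 121130644, plus strand), which marks subepithelial mesenchymal cells in the mouse gut, had 3.60, 1.65 and 3.50 CPM in KO and 2.98, 2.14 and 1.79 CPM in WT. Its groups overlapped through KO replicate 2, the lowest of all 6 libraries, and its log2 fold change was 0.34 ± 0.38.

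Foxl1 lies 39795 bases from Foxf1, with Foxc2 and Mthfsd between them. Foxc2, a forkhead gene of lymphatic vessels and of mesenchyme, had 0.952, 0.726 and 1.51 CPM in KO and 0.2796, 0.315 and 0.644 CPM in WT. Its log2 fold change was 1.36 ± 0.47, and its KO libraries lay above its WT libraries. Mthfsd, the other gene of that interval on the list, had a log2 fold change of -0.10 ± 0.16. Fendrr, a long noncoding RNA that lies 1275 bases from Foxf1 on the opposite strand, had 4.90, 6.93 and 7.73 CPM in KO and 4.13, 8.84 and 4.31 CPM in WT. WT replicate 2 was the highest library for Fendrr and the lowest for Foxf1, so the divergent pair did not follow each other across libraries.

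Irx5 had the largest ratio of highest to lowest library among the 10 genes, 24.0 in CPM, with Irx3 next at 7.65. Irx5 (ENSMUSG00000031737, chromosome 8, 92357796 to 92361456, plus strand) had 89, 183 and 76 counts in KO tumors and 25, 18 and 9 counts in WT tumors. Scaled to TMM library size these were 3.14, 6.04 and 1.82 CPM in KO and 0.777, 0.566 and 0.252 CPM in WT. KO replicate 2 stood highest, and the lowest KO library was still above the highest WT library. The group means were 3.67 ± 2.16 CPM in KO and 0.532 ± 0.264 CPM in WT (SD, n = 3 each), and the fitted log2 fold change was 2.78 ± 0.59 (SE). By that fold change Irx5 stood at place 22 of 17254 genes from the top. With 1 mouse left out the fold change lay between 2.22 (without KO replicate 2) and 3.15 (without WT replicate 1).

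Irx3, the other Iroquois gene of the set (ENSMUSG00000031734, chromosome 8, 91798525 to 91801916, minus strand), was rarer. Counts were 41, 13 and 48 in KO tumors and 20, 6 and 10 in WT tumors, which is 1.45, 0.429 and 1.15 CPM in KO and 0.621, 0.189 and 0.2799 CPM in WT. KO replicate 2, the highest library for Irx5, was the lowest KO library for Irx3 and lay below WT replicate 1. The fitted log2 fold change was 1.47 ± 0.61, with means of 1.01 ± 0.523 CPM in KO and 0.363 ± 0.228 CPM in WT. Irx5 and Irx3 lie 555879 bases apart, and the ratio of Irx5 to Irx3 CPM was 2.17, 14.1 and 1.58 in KO tumors and 0.900 to 3.00 in WT tumors. The pair therefore did not keep a fixed ratio, and KO replicate 2 set the range. Irx3os, an antisense transcript that overlaps Irx3, held 6 counts over the 6 libraries.

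Genes around Irx5 and its paralogs were examined next. Crnde, a noncoding RNA gene that lies 1675 bases from Irx5 on the opposite strand, had 4, 13 and 9 counts in KO tumors and 4, 4 and 5 counts in WT tumors, too few to enter the test. Its highest library was KO replicate 2 (0.429 CPM), as for Irx5. All KO libraries (0.141 CPM or more) lay above the WT libraries (0.124 to 0.140 CPM) only after scaling. In counts KO replicate 1 (4) equalled WT replicates 1 and 2 and lay below WT replicate 3 (5). Fto, the demethylase gene whose introns hold long-range enhancers of the mouse Irx3 locus, had 61.0, 37.3 and 59.5 CPM in KO and 53.6, 42.4 and 51.1 CPM in WT (log2 fold change 0.10 ± 0.21). Rpgrip1l, a cilium transition zone gene beside Fto, had a log2 fold change of 0.25 ± 0.28. Irx6, the third gene of the cluster, had 2, 0 and 1 counts in KO tumors and 0, 0 and 1 counts in WT tumors, which is at or under the 3 counts that a 0 allows. In the second Iroquois cluster, Irx4 had 1.37, 0.396 and 1.06 CPM in KO and 1.06, 0.598 and 0.896 CPM in WT (log2 fold change 0.15 ± 0.49), while Irx1 and Irx2 had at most 4 counts in any library. Among the 5 locus neighbours and the 1 family member that could be tested (Fto, Rpgrip1l, Mthfsd, Fendrr, Foxc2 and Irx4), 0 passed with edgeR, DESeq2 or limma-voom. Of them 1, Foxc2, had an unadjusted p below 0.05 (edgeR), beside 5.85% of all genes. Foxc2 had 27, 22 and 63 counts in KO tumors and 9, 10 and 23 counts in WT tumors. WT replicates 1 and 2 were under the filter minimum, so Foxc2 could not enter the test through its WT libraries alone, and nothing is read from its p.

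**Figure D2:**
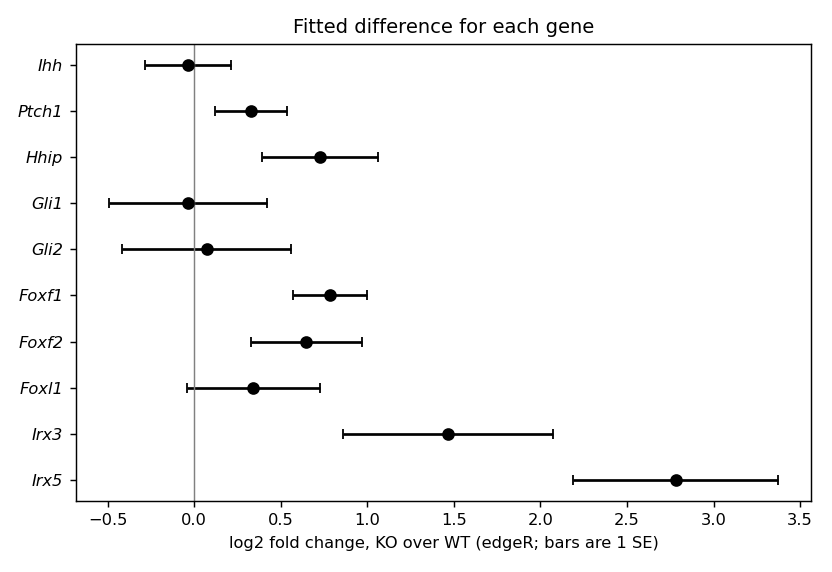
Fitted log2 fold change of KO over WT for each gene (edgeR, x axis), with bars of 1 SE, ordered from the ligand at the top to the Iroquois genes at the bottom. Irx5 lies at 2.78 and Irx3 at 1.47, while Ihh, Gli1 and Gli2 lie within 0.1 of 0.

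Compared per length of exon, the order of levels was Ihh, Foxf1, Foxf2, Ptch1, Foxl1, Irx5, Gli1, Hhip, Irx3 and Gli2. Ihh averaged 29.6 CPM per kb over the 6 libraries, with a range of 20.7 to 38.3 that did not touch that of Foxf1 (7.23, from 4.17 to 10.6). Foxf1, Foxf2 and Ptch1 overlapped with their neighbours in that order, as did every gene from Foxl1 (0.965 CPM per kb) down to Gli2 (0.185 CPM per kb). A second gap lay between Ptch1, with a lowest library of 2.14 CPM per kb, and Foxl1, with a highest of 1.33 CPM per kb. Irx5 spanned the widest range as a ratio of highest to lowest library (24.0), from 0.0806 CPM per kb in WT replicate 3 to 1.93 CPM per kb in KO replicate 2, and its place in the order differed by genotype. In KO tumors Irx5 averaged 1.17 ± 0.690 CPM per kb, close to Foxl1 at 1.08 ± 0.406, while in WT tumors Irx5 averaged 0.170 ± 0.0845 CPM per kb and Foxl1 0.852 ± 0.226.

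**Figure D3:**
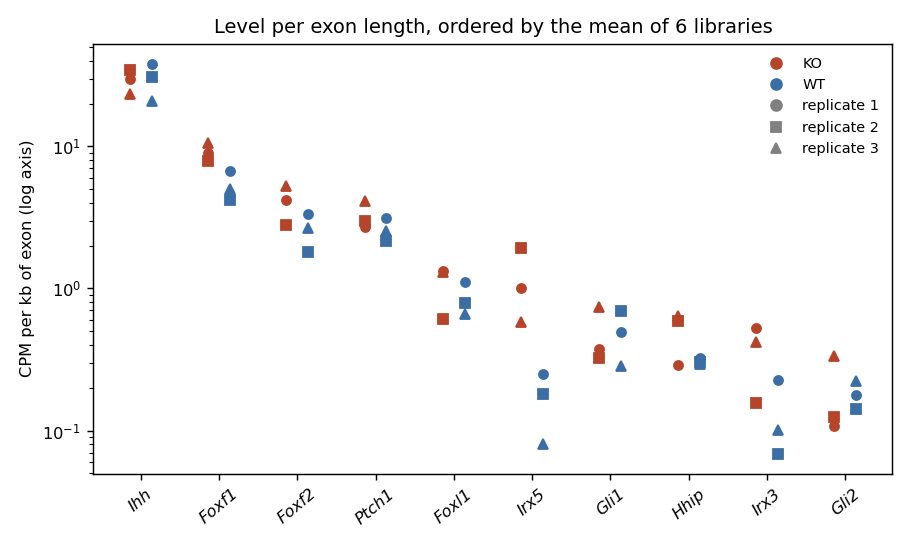
CPM per kb of exon for each gene in each library on a log axis, with KO points left of WT points and genes ordered by the mean over all 6 libraries. Ihh stands above the rest at 20.7 to 38.3 CPM per kb, and Irx5 has the widest range on this log axis, from 0.0806 to 1.93 CPM per kb.

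Stromal markers differed between libraries, and most of them had fold changes of the same sign as most of these genes. In bulk tumor RNA, fewer cells of a type and less RNA per cell cannot be told apart. A list of 25 fibroblast and smooth muscle markers summed to 2780.0, 1846 and 3999.7 CPM in KO tumors and 2094, 1041 and 2235 CPM in WT tumors, with no marker at 0 in any library. Of these markers 23 of 25 had a fold change above 0, against 51.1% of all genes tested (median log2 fold change 0.72, against 0.01). With edgeR, DESeq2 or limma-voom 0 of 25 passed, and 6 had an unadjusted p below 0.05 (edgeR), beside 5.85% of all genes. The fibroblast median of 0.76 was 0.31 without KO replicate 3 and 0.40 without WT replicate 2, and the smooth muscle median of 0.66 was 0.39 without WT replicate 2 and 1.00 without WT replicate 1. The smooth muscle markers alone summed to 834 to 901 CPM in KO and 417 to 789 CPM in WT, without overlap. The 3 most abundant fibroblast markers, the collagen genes Col1a1, Col3a1 and Col1a2, had log2 fold changes of 0.86 ± 0.62, 0.76 ± 0.59 and 0.76 ± 0.59. Endothelial markers summed to 339 to 468 CPM in KO and 248 to 318 CPM in WT, and 8 of 8 had a fold change above 0. Epithelial markers summed to 11290.2 to 14654 CPM in KO and 13143 to 16708 CPM in WT, and 9 of 10 had a fold change below 0. Immune markers summed to 66.2 to 117 CPM in KO and 74.0 to 114 CPM in WT, with 3 of 9 tested above 0, and glia and neuron markers to 24.99 to 39.0 CPM in KO and 29.7 to 39.8 CPM in WT, with 3 of 8 above 0. In these other lists edgeR and limma-voom called 0 markers and DESeq2 called 1, the glial marker S100b, named after its values were seen (log2 fold change -1.22, adjusted p = 0.0115, DESeq2). At an unadjusted p below 0.05 (edgeR) there were 3 endothelial, 0 epithelial, 1 immune and 1 glia and neuron markers, beside 5.85% of all genes. None of the markers of these other lists was at 0 in any library either.

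Each gene was also divided by the summed stromal markers of its library, as a description with no test. Irx5 had 1.13, 3.27 and 0.456 CPM per 1000 CPM of stromal markers in KO tumors and 0.371, 0.544 and 0.113 in WT tumors, a log2 difference of 2.07 between the means of the logs. On this sum KO replicate 3 lay below WT replicate 2, so the groups overlapped. Over the fibroblast markers alone the Irx5 groups overlapped too, whereas over the smooth muscle markers alone they did not. The log2 difference of Irx5 was 2.05 with fibroblast markers alone and 2.21 with smooth muscle markers alone. On the sum of both lists it was 1.34 without KO replicate 2 and 1.41 without WT replicate 3. Foxf1 had 7.78, 10.3 and 6.402 CPM per 1000 marker CPM in KO and 7.74, 9.67 and 5.45 in WT, a log2 difference of 0.11 that changed sign to -0.07 without KO replicate 2 and -0.11 without WT replicate 3. The log2 difference was -0.05 for Foxf2, -0.40 for Foxl1, -0.05 for Hhip, -0.37 for Ptch1, -0.74 for Gli1, -0.80 for Gli2 and 0.79 for Irx3. The median over the 9 genes other than Ihh was -0.05 on this scale, against 0.65 as fitted by edgeR on TMM library sizes. The first is a difference between means of logs and the second a fitted fold change, so the 2 are unlike measures. On the sum of both lists Gli2 was the single gene whose 3 KO libraries lay below its 3 WT libraries. Over the smooth muscle markers alone the Gli2 groups overlapped, with KO replicate 3 the highest library, and its log2 difference was -0.66. The part of stromal content in any of these differences was not tested.

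**Figure D4:**
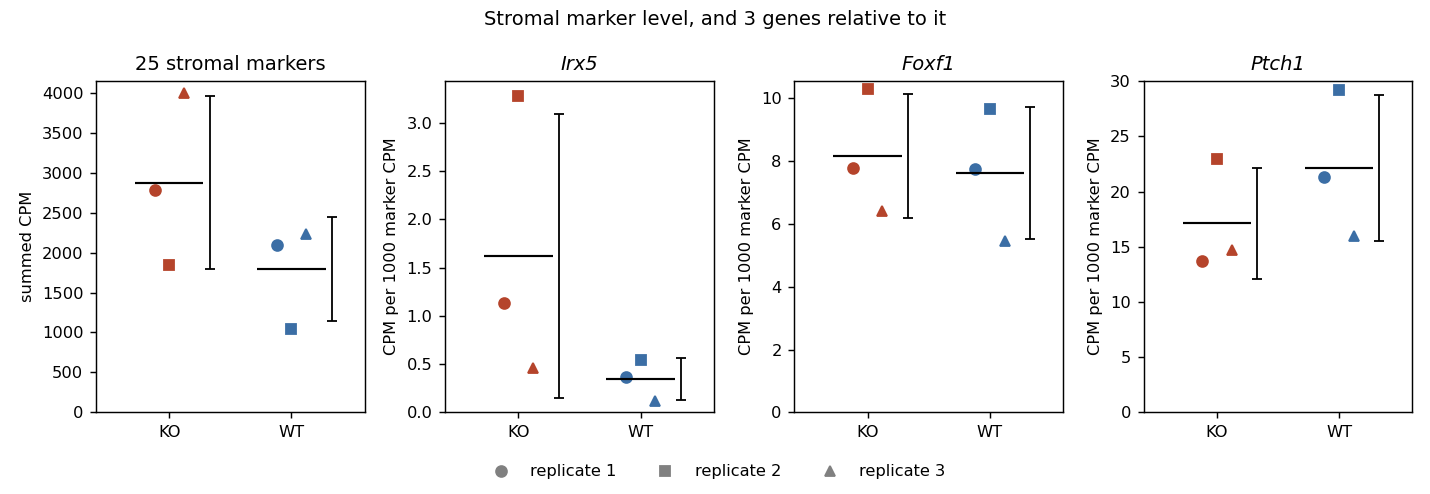
Summed CPM of 25 fibroblast and smooth muscle markers in each library (left), and CPM of Irx5, Foxf1 and Ptch1 per 1000 CPM of those markers, with KO left of WT, bars for means and 1 SD (n = 3 mice each). Relative to the sum of all 25 markers Foxf1 and Ptch1 overlap widely, and Irx5 overlaps only through KO replicate 3 at 0.456 and WT replicate 2 at 0.544.

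Which mouse was highest differed by gene. KO replicate 3, which had the highest fibroblast marker sum of the 6 libraries and the lowest smooth muscle marker sum of the KO libraries, was the highest library for 6 of the 10 genes, Ptch1, Hhip, Gli1, Gli2, Foxf1 and Foxf2, against 19.4% of all genes tested. KO replicate 1 was highest for Foxl1 and Irx3, KO replicate 2 for Irx5 and WT replicate 1 for Ihh. WT replicate 2, with the lowest sums of both marker lists, was the lowest library for 4 genes, Ptch1, Foxf1, Foxf2 and Irx3, against 20.7% of all genes. WT replicate 3, with the highest fibroblast marker sum of the WT libraries, was the lowest for Ihh, Gli1 and Irx5, against 12.9% of all genes. The median log2 fold change of the 9 genes other than Ihh was 0.65, and it was 0.42 without KO replicate 3 and 0.44 without WT replicate 2. The highest library of Irx5, KO replicate 2, had the lowest summed level of the 25 markers among the KO libraries. Its smooth muscle sum (871 CPM) was above that of KO replicate 3 (834 CPM). Evc and Evc2 of the hedgehog pathway list were also highest in KO replicate 2.

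Of 21 other hedgehog pathway genes, all 21 could be tested and 0 passed in either direction with edgeR, DESeq2 or limma-voom. At an unadjusted p below 0.05 there were 4 (edgeR), Evc2, Evc and Scube1 among them, beside 5.85% of all genes. In 5 of the 21 the KO libraries lay above the WT libraries, beside 5.86% of all genes, and in 0 they lay below, beside 5.34%. The fold change was above 0 for 16 and below 0 for 5, with a median log2 fold change of 0.46, against 51.1% above 0 and a median of 0.01 over all genes tested. That median was 0.24 without KO replicate 1, 0.22 without KO replicate 3 and 0.27 without WT replicate 3, and the stromal markers moved in the same direction, a part that was not tested.

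Ligands other than Ihh were scarce. Shh, the second epithelial ligand, had 8, 6 and 6 counts in KO tumors and 10, 14 and 5 counts in WT tumors. Dhh, the third ligand, had 2.82, 0.759 and 2.16 CPM in KO and 2.73, 1.196 and 2.099 CPM in WT. Neither separated the groups, and per kb of exon Shh averaged 0.0887 CPM and Dhh 0.446 CPM, far under Ihh. Of the proteins that make or release the ligand, Hhat, the palmitoyl transferase, had a log2 fold change of -0.03 ± 0.23 and Disp1, which exports ligand, of 0.27 ± 0.19. Scube1, a secreted protein of the Scube family, whose members help to release hedgehog ligands, had 23.9, 17.2 and 35.2 CPM in KO and 14.8, 13.97 and 18.1 CPM in WT (log2 fold change 0.71 ± 0.27). Its relatives Scube2 and Scube3 had log2 fold changes of 0.81 ± 0.56 and 0.93 ± 0.45.

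On the receiving side, the coreceptors Boc, Cdon and Gas1 had log2 fold changes of 0.52 ± 0.31, 0.25 ± 0.16 and 0.46 ± 0.32. Smo, the signal transducer, had 53.9, 33.1 and 52.6 CPM in KO and 50.3, 36.0 and 33.7 CPM in WT (0.22 ± 0.24). Sufu, which holds Gli proteins in check, had a log2 fold change of 0.07 ± 0.14, and Spop, which directs Gli turnover, of -0.03 ± 0.11. Gpr161 and Kif7 of the same list had log2 fold changes of 0.73 ± 0.42 and 0.47 ± 0.37, with overlapping groups. Gli3, the main repressor form among the Gli factors, had 1.45, 1.29 and 3.12 CPM in KO and 1.12, 0.755 and 1.18 CPM in WT, so its groups were separate where those of Gli1 and Gli2 overlapped (log2 fold change 0.94 ± 0.43).

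The divergent neighbours Evc and Evc2, whose products form a complex at the base of the primary cilium that passes on the Smo signal, were separate between the groups. Evc2 had 6.06, 11.4 and 5.71 CPM in KO and 4.32, 2.89 and 3.33 CPM in WT, and Evc had 3.77, 6.31 and 3.79 CPM in KO and 2.80, 2.42 and 2.63 CPM in WT. In both genes KO replicate 2 was the highest library, as it was for Irx5. Their log2 fold changes were 1.13 ± 0.34 and 0.82 ± 0.29. The 2 genes lie 1604 bases apart on chromosome 5, so they are neighbours and may not vary independently.

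**Figure D5:**
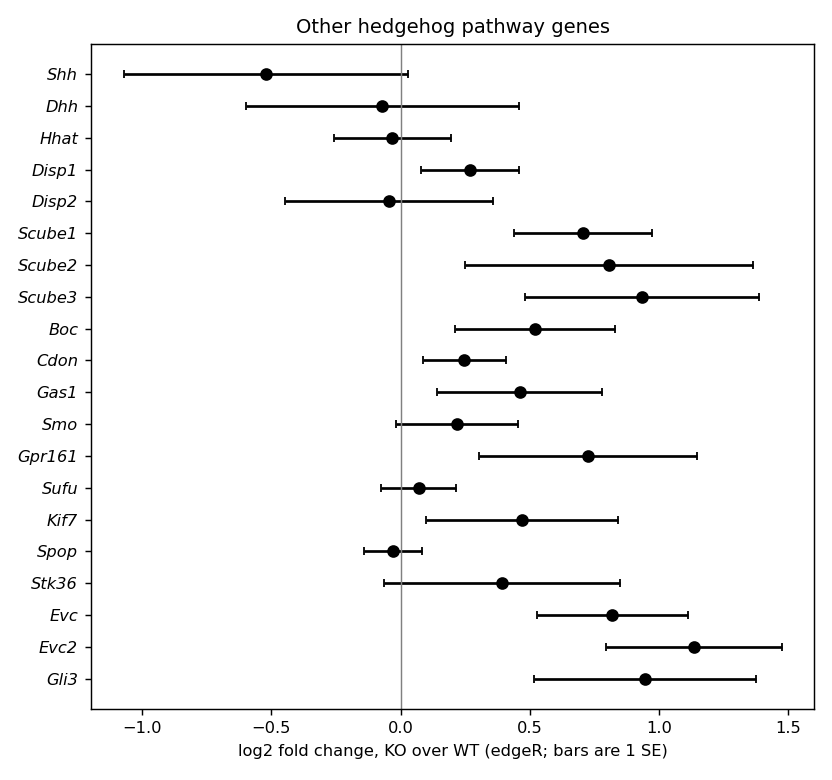
Fitted log2 fold change of KO over WT (edgeR, x axis) with bars of 1 SE for 20 other hedgehog pathway genes, ligands at the top and Gli3 at the bottom. Evc2 (1.13) lies farthest to the right and Shh (-0.52) farthest to the left, and none passed an adjusted p of 0.05.

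Of 21 further transcription factors of the gut mesenchyme, 16 could be tested and 0 passed with edgeR, DESeq2 or limma-voom. Meis2 and Foxc2, 2 in all, had an unadjusted p below 0.05 (edgeR), beside 5.85% of all genes. Foxc2 was also counted among the locus neighbours, and it could not enter the test through its WT libraries alone. The median log2 fold change of the 16 was 0.14, with 12 above 0 and 4 below, against 51.1% above 0 over all genes tested. That median was 0.33 without KO replicate 2, 0.08 without KO replicate 3, 0.08 without WT replicate 2 and 0.38 without WT replicate 3. Among the 3 most abundant were Tbx3, a T-box repressor with 206, 287 and 203 CPM in KO and 257, 240 and 180 CPM in WT, and Meis2, a homeodomain factor. Meis2 had 41.4, 55.7 and 44.3 CPM in KO and 62.3, 67.9 and 53.9 CPM in WT (log2 fold change -0.38 ± 0.15), with KO replicate 2 inside the WT range. Among these 16 factors, values in KO lay on both sides of those in WT.

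Start sites were examined for Ihh, Gli2, Hhip, Irx3, Foxf2 and Ptch1, the 6 genes with an entry among the RefSeq promoters (GRCm38.p6, 250 bases before to 50 bases after the start). The Gli motif GACCACCCA, its shorter core CCACCCA, which the first contains, and the forkhead motif GTAAACA were sought on both strands. None of the 6 windows held any of the 3, where 0.253%, 9.30% and 3.65% of 32851 promoters did. This says only that these letters are not in these windows.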

How the data were processed

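Per the labels' protocols, RNA was purified from small intestinal adenomas with the RNeasy Plus Mini kit and made into libraries by a standard Illumina protocol. The authors deposited raw counts for each Ensembl gene, 1 table a library. Per the submitters' processing notes, the tools were TopHat2 2.1.0 and HTSeq 0.6.1 and the build mm10; the sources used here name neither the annotation release nor the strand setting. The tables hold 46078 genes, of which 45143 found a symbol in GENCODE M21 (GRCm38, the build mm10 is made from). Start, end and length per the file headers are gene spans, so exon lengths were taken as the union of GENCODE M21 exons, whose gene ends differ from the deposited ones for Irx3, Irx5, Gli1 and Hhip.

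Genes were filtered with filterByExpr, scaled by TMM and compared by the robust quasi-likelihood F-test of edgeR 4.0.16 (R 4.3.3), with Benjamini-Hochberg adjustment over all 17254 genes. An SE is the fold change (log2) divided by the square root of F. CPM are counts scaled to TMM library sizes. No pair of libraries within a group agreed within counting error (47.0 to 223 in chi-square over its degrees of freedom), so each is 1 replicate. The fit was tested on simulated counts. The limit set by a count of 0 covers counting error alone, because reads were not tied to single molecules. Near-identical copies were sought with BLAST 2.17.0 at 95% identity over at least 100 bases. Outside its own locus this gave matches for Ptch1 alone, of at most 148 bases.

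The members, gene lists and tests were chosen with earlier results of these data known. All members were described, every gene of the pathway, Iroquois and neighbour lists could be named, and of the other lists the 3 most abundant. Single values of some genes of these lists are not reported here. Alternatives were DESeq2 1.42.0, limma-voom (limma 3.58.1), other scalings and filters, a replicate block and leaving out each mouse.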

Additional observations from a re-analysis of the deposited data

How the results depend on the processing

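With DESeq2, 110 genes passed and 1 member did (Irx5), against 16 and 0 with edgeR, and the cause was not tested. All 16 edgeR genes were among the 110. The count of genes ranged from 9 to 41 when 1 mouse was left out, being 9 without KO replicate 1, 10 without KO replicate 3, 41 without KO replicate 2 and 29 without WT replicate 3. Members passing stayed at 0 in these 6 fits, and the pathway, mesenchyme and neighbour lists had 0 calls under every alternative run. Relative to stromal markers, the median over 9 members was -0.07 with fibroblast markers alone, 0.09 with smooth muscle markers alone and -0.32 to 0.07 with 1 mouse left out.

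Fold changes of Irx5, Irx3, Foxf1, Foxf2, Foxl1, Hhip and Ptch1 stayed above 0 under every alternative that could be fitted, and Irx3 did not pass the filter of 1 CPM in 3 libraries. Gli1 changed sign to 0.060 with library size alone and 0.0041 with limma-voom, and it ranged from -0.50 to 0.30 with 1 mouse left out, above 0 without KO replicate 1, KO replicate 2 or WT replicate 2. Gli2 changed to -0.054 with limma-voom and -0.078 with a replicate block, and it ranged from -0.64 without KO replicate 3 to 0.33 without KO replicate 1. Ihh changed to 0.011 with library size alone and ranged from -0.24 without WT replicate 3 to 0.17 without WT replicate 1. With the title number as a replicate block 14 genes passed and 0 members. Same-numbered libraries deviated together with correlations of 0.27, 0.31 and 0.09, the last under 0.1. Those of replicates 1 and 2 were higher than for any other pair, whereas KO replicate 3 correlated better with WT replicate 1 (0.23). The labels do not say that the number marks a litter, batch or day, and whether it does was not tested.

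Medians of the mesenchyme list were 0.07 with at least 1 CPM in 3 libraries and 0.22 with library size alone. Irx3 had 6 to 48 counts a library. Irx1, Irx2 and Irx6 had at most 4, so a difference in them was not detectable at this depth.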
